A study of Homo sapiens with 12 samples.

Results

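The transcripts described here encode 10 proteins with which a cell senses a shortage of amino acids and adjusts protein synthesis. The GCN2 arm holds the kinase GCN2 (EIF2AK4, ENST00000263791), its ribosome-bound activator GCN1 (ENST00000300648) and its substrate eIF2α (EIF2S1, ENST00000256383). The mTORC1 arm holds the kinase (MTOR, ENST00000361445), its scaffold raptor (RPTOR, ENST00000306801), its activating GTPase (RHEB, ENST00000262187), and the substrates S6K1 (RPS6KB1, ENST00000225577) and EIF4EBP1 (ENST00000338825), a repressor of translation. The last members are the ribosome rescue pair PELO (ENST00000274311) and HBS1L (ENST00000367837). PELO and HBS1L belong to neither kinase pathway; they split ribosomes that have stalled. The members were taken by Ensembl transcript identifier, 1 per gene, from tables of 19686 transcripts for RNA and 19849 for ribosome footprints, and all 10 were present in both tables. The tables carry identifiers only, so the gene symbols are those assigned to these identifiers when the set was drawn up.

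RKO is a line of wild-type human colon cancer cells. Fed cells received 400 uM arginine and starved cells 12.5 uM arginine for 24 hours, both in otherwise arginine-free DMEM with dialyzed serum. RNA-seq and ribosome profiling, which sequences the mRNA fragments protected by ribosomes, were run side by side on 3 libraries for each treatment. The labels number the libraries but do not tie them to independent cultures. The p-values therefore speak only of library-to-library spread, part or all of which may be technical.

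GCN2 and mTORC1 are the 2 classical routes by which amino acid supply reaches the translation machinery. GCN2 is switched on by uncharged tRNA and by stalled ribosomes, and phosphorylates eIF2α, which lowers initiation on most mRNAs and favours a few, ATF4 among them. mTORC1 is recruited to the lysosome when arginine and leucine are present and is activated there by RHEB; it keeps the EIF4EBP1 product from binding the cap-binding protein eIF4E and activates S6K1. Both pathways act through phosphorylation, which neither assay measures. The values below are the supply of the components' transcripts and of the ribosomes on them.

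Each RNA library held 4670881 to 7967215 counts, and each footprint library held 2063952 to 4364383. The 10 transcripts took between 0.106 and 0.118% of RNA counts and between 0.0894 and 0.103% of footprint counts, and the smallest single value was 40 counts (RPS6KB1 footprints, fed replicate 3). Levels are given as CPM, counts scaled to library size with TMM factors. Changes are log2 fold changes of starved over fed, from edgeR's quasi-likelihood test fitted over all transcripts, and "called" means a Benjamini-Hochberg adjusted p under 0.05. Translational efficiency is the ratio of footprints to RNA, and its change was tested as an interaction term (assay by treatment). All 10 members passed the filter on low counts in all 3 comparisons.

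mTORC1 is known to control mRNAs that begin with a C followed by a run of pyrimidines (the TOP motif). The annotated 5′ ends are therefore shown for the 5 members whose efficiency had an unadjusted p under 0.05, called or not. Each line gives 15 bases before and 15 bases from the RefSeq start on GRCh38.p14, with the first 5 transcribed bases in capitals. RHEB lies at chr7:151519881-151519910 (minus strand), HBS1L at chr6:135054808-135054837 (minus), RPTOR at chr17:80544823-80544852 (plus), EIF2S1 at chr14:67360313-67360342 (plus) and RPS6KB1 at chr17:59893106-59893135 (plus).
RHEB: gcggcggaagaaggtGGGAGggtcatgacg
HBS1L: cttgcgcaggcgctcGGCGCagaggcctgc
RPTOR: cgcggtgcattctggGTCCTggcaatatgg
EIF2S1: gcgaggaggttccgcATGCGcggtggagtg
RPS6KB1: ggcctaggcgcagacGCACTgagcctaagc

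A C followed by 4 pyrimidines at the annotated start was found in 0 of the 9 members with a RefSeq window (EIF4EBP1 had none), against 4.07% of all 35116 windows. TGATGNAA, the core of the element bound by ATF4 with C/EBP proteins, was searched on both strands of the 300-base windows and was likewise found in 0 of 9, against 3.62% of all. With only 9 windows and background shares this low, 0 is a likely count for any set of genes, so it does not set the members apart. These letters come from annotated starts, which need not be the starts used in RKO cells.

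Starvation changed the RNA of 6 of the 10 members, 4 higher and 2 lower. Over all 11572 transcripts tested, 67.9% were called, 33.8% higher and 34.1% lower, so the members' share is near the background. Footprints were called for 4 members, 1 higher and 3 lower, against 39.8% of 13457 transcripts (18.9% higher and 20.9% lower). Efficiency was called for 2 members, both lower, against 22.9% of 11027 transcripts (11.1% higher and 11.8% lower). The members' median log2 fold change was 0.05 in RNA, −0.13 in footprints and −0.15 in efficiency, beside −0.01, 0.05 and −0.02 over all transcripts tested. Starved and fed libraries did not overlap for 6 members in RNA and 6 in footprints, where 69.8% and 50.7% of all tested transcripts did not overlap.

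**Figure D1:**
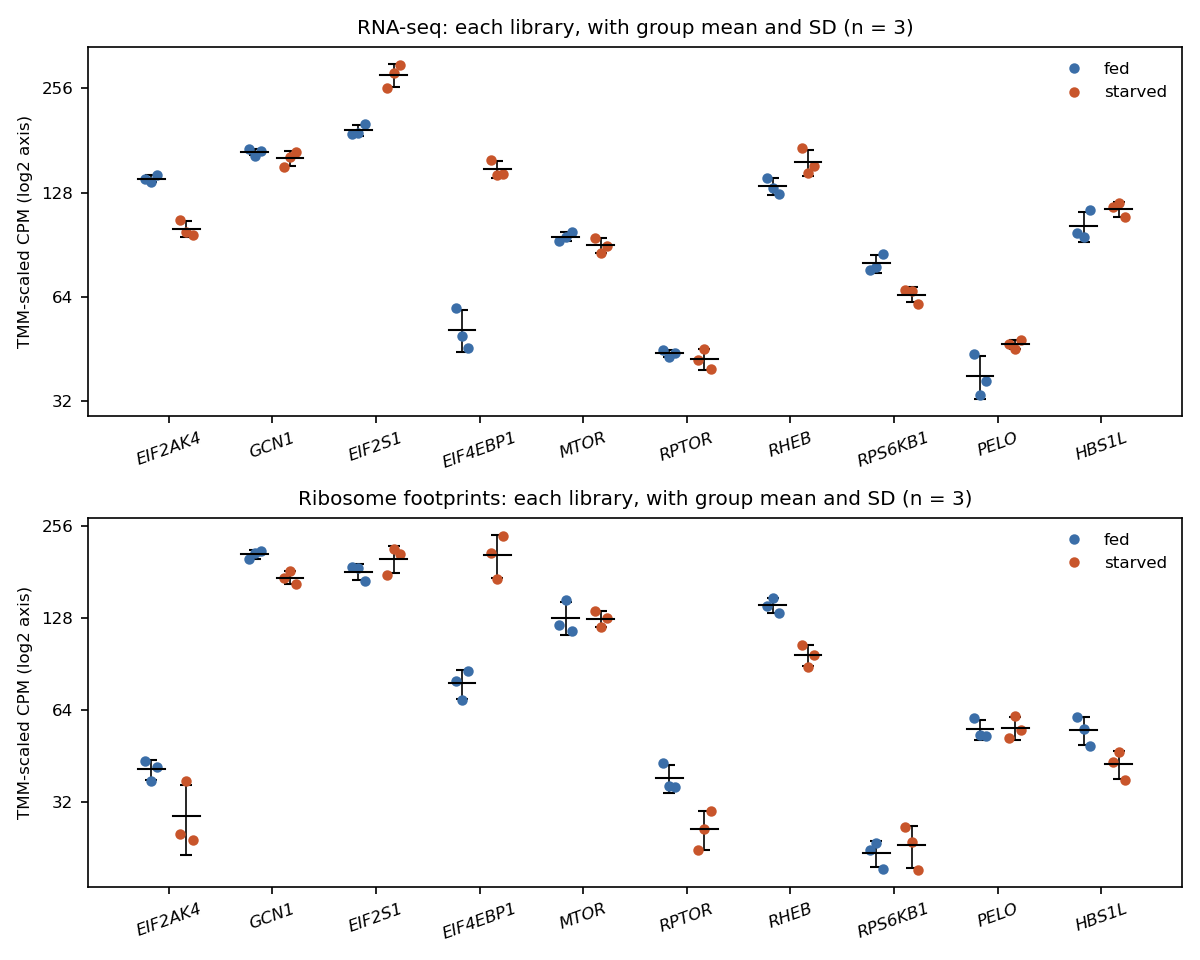
TMM-scaled CPM of each member in each library (log2 axis), RNA-seq above and ribosome footprints below; points are libraries, horizontal lines group means and bars SD (n = 3). EIF4EBP1 stands higher in every starved library in both assays, and RHEB is higher in starved RNA and lower in starved footprints. Heights are not to be compared between genes, since counts are not divided by transcript length.

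In the GCN2 arm, RNA of the kinase fell and RNA of its substrate rose. EIF2AK4 RNA measured 140, 138 and 144 CPM in fed replicates 1 to 3 and 107, 98.6 and 96.5 CPM in starved replicates 1 to 3. Every starved library lay below every fed one, and RNA changed by −0.48 (SE 0.07, adjusted p = 2.73e-08, edgeR). EIF2AK4 footprints were 43.6, 37.5 and 41.5 CPM in fed and 25.2, 37.3 and 23.9 CPM in starved libraries. The groups are separate only narrowly, because starved replicate 2 lies just under the lowest fed library. With library totals the groups overlap, at 37.5 CPM in starved replicate 2 and 36.3 CPM in fed replicate 2. The footprints fell by 0.52 (SE 0.18, edgeR adjusted p = 0.0370), and RNA and footprints called lower together were found in 18.9% of transcripts tested in both assays. The efficiency difference was 0.03 (95% confidence interval −0.33 to 0.40). The footprint call was lost under several settings. The edgeR adjusted p was 0.0507 with library totals in place of TMM factors, 0.0543 with an abundance trend removed and 0.0534 with at least 10 counts required in every library, and it was 0.0769 with DESeq2. Without one footprint library it was 0.120 (fed replicate 1), 0.0729 (fed replicate 3), 0.0764 (starved replicate 1) and 0.136 (starved replicate 3).

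EIF2S1, the α subunit of the initiation factor that GCN2 phosphorylates, had more RNA in starved cells. Its RNA measured 189, 191 and 202 CPM in fed and 256, 285 and 299 CPM in starved libraries, with no overlap. The rise was 0.53 (SE 0.07, edgeR adjusted p = 9.75e-10), a 1.44-fold increase. EIF2S1 footprints were 188, 187 and 169 CPM in fed and 177, 216 and 207 CPM in starved libraries, which overlap, and the change of 0.14 was not called (95% confidence interval −0.13 to 0.41, edgeR adjusted p = 0.384). Its efficiency difference of −0.30 (SE 0.13) had an unadjusted p of 0.0251 and an edgeR adjusted p of 0.0880, and missed the threshold. It was −0.40 without a filter on low counts (edgeR adjusted p = 0.0488) and −0.05 with the abundance trend removed (edgeR adjusted p = 0.802).

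GCN1, the large ribosome-associated protein that GCN2 needs for activation, was called in none of the 3 comparisons by edgeR with TMM factors. Its RNA averaged 168 ± 3.50 CPM in fed and 161 ± 7.95 CPM in starved libraries (SD, n = 3), a difference of −0.06 (95% confidence interval −0.20 to 0.07, edgeR adjusted p = 0.421). With library totals alone the RNA difference was −0.18 (edgeR adjusted p = 0.0221), and with the abundance trend removed it was −0.24 (edgeR adjusted p = 0.00131). GCN1 footprints were 199, 210 and 212 CPM in fed and 173, 182 and 165 CPM in starved libraries. The 3 starved libraries lie below the 3 fed ones, but the difference of −0.25 (SE 0.11) had an unadjusted p of 0.0448 and an edgeR adjusted p of 0.0936. The GCN1 efficiency difference was −0.10 (95% confidence interval −0.34 to 0.14).

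In the mTORC1 core, no change of the kinase transcript was called with TMM factors. MTOR footprints averaged 128 ± 15.9 CPM in fed and 127 ± 7.87 CPM in starved libraries (SD, n = 3), a difference of −0.01 (95% confidence interval −0.29 to 0.28, edgeR adjusted p = 0.980). MTOR RNA averaged 95.4 ± 2.99 and 90.1 ± 4.37 CPM (SD, n = 3), a difference of −0.08 (95% confidence interval −0.23 to 0.07). It was −0.20 with library totals (edgeR adjusted p = 0.0183) and −0.21 with the abundance trend removed (edgeR adjusted p = 0.00938).

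RPTOR, the scaffold that brings substrates to the mTOR kinase, lost footprints. RPTOR footprints measured 42.7, 36.0 and 35.7 CPM in fed and 22.2, 26.1 and 29.8 CPM in starved libraries, on 53 to 187 counts per library. The groups do not overlap, and footprints fell by 0.55 (SE 0.16, edgeR adjusted p = 0.0147). The call was lost without fed footprint replicate 1, the deepest library (−0.46, edgeR adjusted p = 0.0839). RPTOR RNA overlapped between groups, at 43.9 ± 0.973 CPM in fed and 42.2 ± 2.92 CPM in starved libraries (SD, n = 3; difference −0.06, 95% confidence interval −0.25 to 0.12). The RPTOR efficiency difference of −0.42 (SE 0.16) had an unadjusted p of 0.0182 and missed the threshold (edgeR adjusted p = 0.0693). It passed with joint TMM factors over all 12 libraries (adjusted p = 0.0468), without a filter on low counts (0.0402), without fed footprint replicate 3 (0.0498) and without starved footprint replicate 3 (0.0379), all in edgeR.

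RHEB, the small GTPase that switches mTORC1 on, moved in opposite directions in the 2 assays. RHEB RNA measured 141, 132 and 126 CPM in fed and 172, 145 and 153 CPM in starved libraries, so that with TMM factors every starved library lies above every fed one. The RNA rose by 0.23 (SE 0.07, edgeR adjusted p = 0.00368). RHEB footprints measured 140, 149 and 133 CPM in fed and 104, 88.7 and 96.8 CPM in starved libraries, and here every starved library lies below every fed one. Footprints fell by 0.54 (SE 0.12, edgeR adjusted p = 0.00423). The pattern of RNA called higher with footprints called lower was found in 1.08% of the 11027 transcripts tested in both assays.

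The efficiency of RHEB fell by 0.69 (SE 0.14, edgeR adjusted p = 0.00134), to 0.621 times its fed value, at the 5.38 percentile of all efficiency changes. It was called under all 22 alternatives run, with values from −0.79 to −0.49. The RNA rise is the less firm side. It was 0.12 with library totals (edgeR adjusted p = 0.1396), 0.06 with the abundance trend removed (edgeR adjusted p = 0.438) and 0.17 without starved RNA replicate 1 (edgeR adjusted p = 0.0571). With library totals the RNA groups also overlapped, since fed replicate 1 (147 CPM) lay above starved replicates 2 and 3 (143 and 145 CPM). RefSeq lists 3 pseudogenes named after RHEB, and how reads shared with them were assigned is not given in the sources used here.

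**Figure D2:**
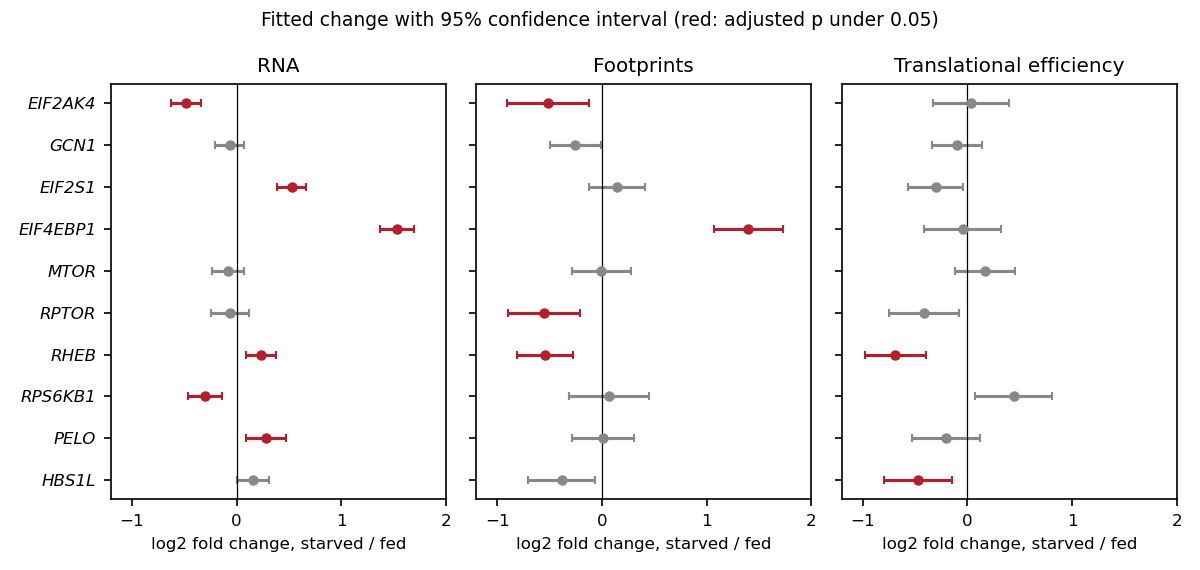
Fitted log2 fold change of starved over fed for each member in RNA, footprints and translational efficiency; points are edgeR estimates, bars 95% confidence intervals, and red marks an adjusted p under 0.05. EIF4EBP1 lies far to the right in both assays with an efficiency near 0, while RHEB lies right of 0 in RNA and left of 0 in footprints and efficiency.

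Among the mTORC1 substrates, EIF4EBP1 had the largest change of the 10 members in both assays. Its product binds eIF4E and blocks cap-dependent initiation unless mTORC1 phosphorylates it, and the gene is a known target of ATF4. EIF4EBP1 RNA measured 59.5, 49.1 and 45.6 CPM in fed and 159, 144 and 145 CPM in starved libraries. The rise was 1.53 (SE 0.08, edgeR adjusted p = 7.58e-26), a 2.89-fold increase at the 97.6 percentile of all RNA changes. EIF4EBP1 footprints measured 79.5, 69.0 and 85.9 CPM in fed and 209, 171 and 238 CPM in starved libraries, again with no overlap.

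EIF4EBP1 footprints rose by 1.40 (SE 0.15, edgeR adjusted p = 2.13e-05), which is 2.64-fold and at the 97.7 percentile of all footprint changes. RNA and footprints called higher together were found in 13.7% of transcripts tested in both assays. The efficiency difference was −0.05 (95% confidence interval −0.41 to 0.32, edgeR adjusted p = 0.882). No change of ribosomes per mRNA was called, and changes within that interval could have been missed. RefSeq lists 2 pseudogenes named after EIF4EBP1 (EIF4EBP1P1 and EIF4EBP1P2), with the same uncertainty as for RHEB.

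RPS6KB1, which encodes the kinase S6K1 of ribosomal protein S6, went the other way in RNA. It measured 76.3, 78.1 and 85.1 CPM in fed and 66.8, 66.5 and 61.1 CPM in starved RNA libraries, with no overlap. RPS6KB1 RNA fell by 0.30 (SE 0.08, edgeR adjusted p = 0.000762). RPS6KB1 footprints were the sparsest of the set, at 40 to 97 counts per library, and averaged 21.7 ± 2.14 CPM in fed and 23.1 ± 3.67 CPM in starved cells (SD, n = 3). Their difference of 0.07 (95% confidence interval −0.31 to 0.45, edgeR adjusted p = 0.778) was not called. The efficiency difference of 0.44 (SE 0.18) had an unadjusted p of 0.0210 and missed the threshold (edgeR adjusted p = 0.0772). It passed with library totals (0.52, adjusted p = 0.0419), with the abundance trend removed (0.54, adjusted p = 0.0376) and without starved footprint replicate 3 (0.60, adjusted p = 0.0208), all in edgeR.

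**Figure D3:**
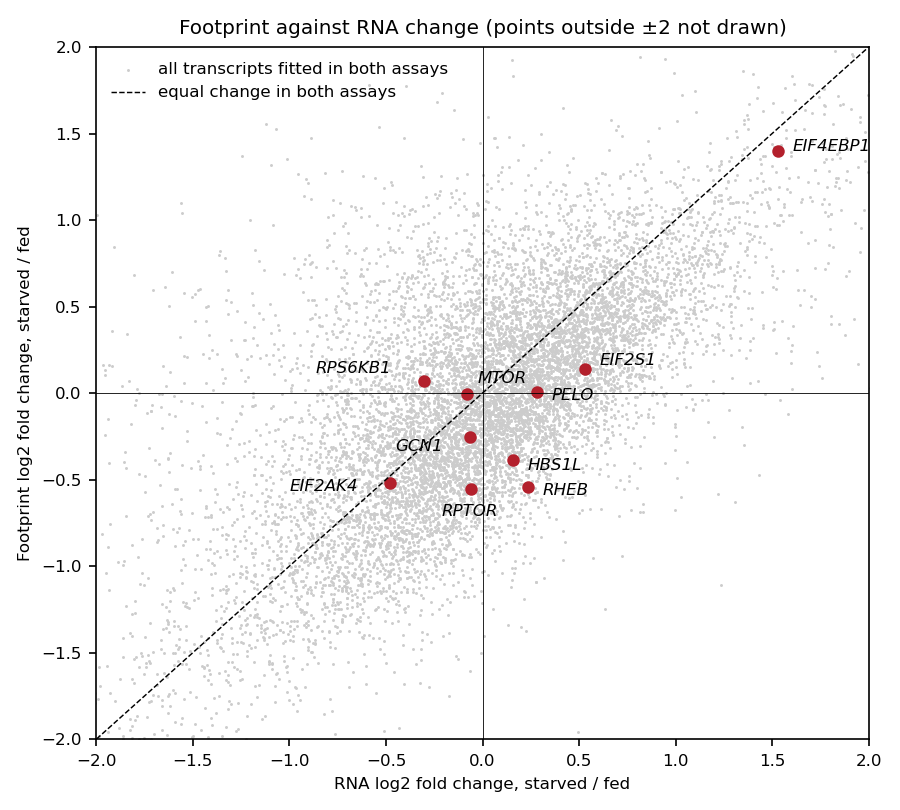
Footprint against RNA log2 fold change, starved over fed, for transcripts fitted in both assays (grey) and the 10 members (red); the dashed line marks equal changes, and points beyond 2 in either direction are not drawn. EIF4EBP1 and EIF2AK4 lie near the line, RHEB, HBS1L and RPTOR below it and RPS6KB1 above it.

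In the ribosome rescue pair, a change was called in the RNA of PELO and in the efficiency of HBS1L. PELO, the homologue of release factor eRF1 that enters the empty A site of a stalled ribosome, measured 43.8, 33.3 and 36.4 CPM in fed and 46.8, 45.1 and 47.9 CPM in starved RNA libraries. The starved libraries lie above the fed ones with TMM factors, and RNA rose by 0.28 (SE 0.10, edgeR adjusted p = 0.00791). The call was lost with library totals (0.17, edgeR adjusted p = 0.116) and without fed RNA replicate 2 (0.22, edgeR adjusted p = 0.0672). With library totals the groups also overlapped: fed replicate 1 was 45.6 CPM, above 44.6, 44.3 and 45.4 CPM in starved replicates 1 to 3. PELO footprints averaged 55.2 ± 4.19 CPM in fed and 55.8 ± 4.73 CPM in starved libraries (SD, n = 3), a difference of 0.01 (95% confidence interval −0.29 to 0.30). In RefSeq PELO shares its annotated start with ITGA1, whose gene it overlaps, and it also overlaps PELO-AS1, so its counts are uncertain where reads could belong to either neighbour. All other members except EIF4EBP1 also overlap annotated genes, among them EIF2S1 with GPHN, and MTOR and RPTOR with 6 each. Whether this affected their counts was not tested.

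HBS1L is the GTPase that delivers PELO to the ribosome. HBS1L footprints measured 60.5, 55.5 and 48.8 CPM in fed and 43.2, 46.5 and 37.8 CPM in starved libraries, with no overlap, yet the difference of −0.38 (SE 0.15) just missed the threshold (edgeR adjusted p = 0.0531). HBS1L RNA measured 98.0, 95.2 and 114 CPM in fed and 116, 120 and 108 CPM in starved libraries, which overlap, and its difference of 0.16 (SE 0.08) missed it too (edgeR adjusted p = 0.0559). The HBS1L footprint change passed without a filter on low counts (edgeR adjusted p = 0.0495) and without fed footprint replicate 3 (0.0444). The RNA change passed without fed RNA replicate 3 (0.25, edgeR adjusted p = 0.00469) and without starved RNA replicate 3 (0.20, edgeR adjusted p = 0.0377), and was 0.01 with the abundance trend removed (edgeR adjusted p = 0.899). The interaction of the 2 was called: HBS1L efficiency changed by −0.48 (SE 0.16, edgeR adjusted p = 0.0337).

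The HBS1L call was lost without any 1 of 6 libraries. The edgeR adjusted p was 0.0651 and 0.0809 without fed RNA replicates 1 and 2, 0.0528 and 0.0602 without starved RNA replicates 1 and 2, 0.131 without fed footprint replicate 1 and 0.110 without starved footprint replicate 3. It was 0.0821 with library totals and 0.137 with the abundance trend removed. The fitted value was negative in all 22 alternatives, from −0.58 to −0.33.

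Scaling bears on all these small changes. With library totals in place of TMM factors, the median RNA change over all transcripts was −0.12 instead of −0.01, and the calls of efficiency over all transcripts were 1472 higher and 870 lower instead of 1227 and 1296. Of the members' RNA calls, 2 were then higher and 4 lower.

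Ratios of 2 members within a library do not depend on the single scaling factor given to that library, although a correction that varies with abundance would shift them, and 6 pairs were chosen for this after their values had been seen. RHEB had 1.52, 1.39 and 1.28 RNA counts per MTOR count in fed and 1.82, 1.69 and 1.70 in starved libraries. In footprints the same ratio was 1.15, 1.02 and 1.15 in fed and 0.773, 0.743 and 0.758 in starved libraries. The ratio of activator to kinase thus stood higher in all starved RNA libraries and lower in all starved footprint libraries. The RNA ratio also holds the MTOR difference, which was −0.08 with TMM factors and −0.20 with library totals. It is therefore not separate evidence that RHEB RNA rose. Each comparison gave an exact two-sided permutation p of 0.1, the smallest that 3 against 3 libraries allow, so this design cannot reach 0.05. After Benjamini-Hochberg adjustment over 12 comparisons it was 0.133. For pairs picked on their values, a permutation p of 0.1 only restates that the groups do not overlap. The permutation p-values of all 6 pairs are therefore descriptive.

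The footprint ratio of RPTOR to MTOR was 0.302 ± 0.0527 in fed and 0.205 ± 0.0361 in starved libraries, without overlap (SD, n = 3; exact permutation p = 0.1), while in RNA it was 0.461 ± 0.0209 in fed (SD, n = 3) and 0.443, 0.528 and 0.439 in starved libraries (exact permutation p = 1). Footprints of HBS1L relative to PELO went from 0.994 ± 0.0615 to 0.763 ± 0.0740, also without overlap (SD, n = 3; exact permutation p = 0.1), and in RNA from 2.74 ± 0.461 to 2.47 ± 0.192 with overlap (SD, n = 3; exact permutation p = 0.5). EIF2AK4 relative to GCN1 went from 0.837 ± 0.0168 to 0.628 ± 0.0658 in RNA without overlap (SD, n = 3; exact permutation p = 0.1). Its footprint ratio went from 0.198 ± 0.0202 to 0.165 ± 0.0346 with overlap (SD, n = 3; exact permutation p = 0.3).

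The supply of EIF2S1 relative to its kinase EIF2AK4 was 1.38 ± 0.0245 RNA counts per count in fed and 2.80 ± 0.357 in starved libraries, and 4.46 ± 0.475 and 7.16 ± 1.43 in footprints, without overlap in either assay (SD, n = 3; exact permutation p = 0.1 for each). The 2 mTORC1 substrates had the largest shift of the 6 pairs in both assays. This restates the large rise of EIF4EBP1 given above and is not separate evidence, since the pairs were chosen with the values known. EIF4EBP1 per RPS6KB1 count went from 0.648 ± 0.124 to 2.31 ± 0.122 in RNA and from 3.66 ± 0.759 to 9.21 ± 2.81 in footprints (SD, n = 3; exact permutation p = 0.1 for each), with no overlap.

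**Figure D4:**
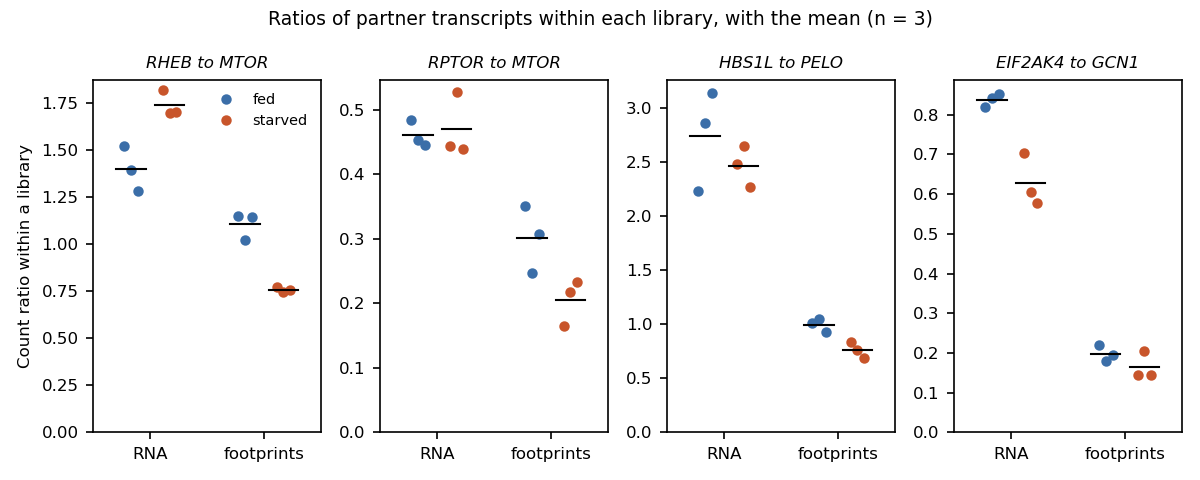
Count ratio of 2 members within each library for 4 of the 6 pairs, RNA on the left and footprints on the right of each panel; points are libraries and lines means (n = 3). RHEB to MTOR is higher in starved RNA and lower in starved footprints, while RPTOR to MTOR and HBS1L to PELO overlap in RNA and do not overlap in footprints.

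The members also differed in how many footprints they carried for their RNA. The ratio of footprint CPM to RNA CPM, from library totals, is free of transcript length only if both assays count the same stretch, which is not given in the sources used here. In fed cells it was highest for EIF4EBP1 (1.44), PELO (1.38), MTOR (1.27) and GCN1 (1.17), followed by RHEB (0.997), EIF2S1 (0.884) and RPTOR (0.822). HBS1L (0.508) came next, and EIF2AK4 (0.276) and RPS6KB1 (0.256) came last, at the 6.41 and 5.23 percentiles of 9858 transcripts with at least 10 counts in every library. The median of those transcripts was 0.852.

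For a spread, footprint and RNA libraries of the same number were divided, although the labels do not tie the numbers to a shared culture. Same-numbered libraries deviated together with correlations of −0.019 to 0.020 in fed and −0.011 to 0.13 in starved cells. Between different numbers the correlations were −0.042 to 0.039 in fed and −0.11 to 0.086 in starved cells. Only starved replicate 1 (0.13) stood above that range, so the check does not settle the pairing. Examples of neighbours in this order that lie within the spread of these ratios are EIF4EBP1 at 1.46 ± 0.277 and PELO at 1.39 ± 0.0823, and EIF2AK4 at 0.276 ± 0.0242 and RPS6KB1 at 0.258 ± 0.0383 (mean of ratios, SD, n = 3). Every replicate value of these 2 kinase transcripts in fed cells lies below every HBS1L value, the next in the order. In starved cells the order was headed by MTOR (1.497) and EIF4EBP1 (1.46), and EIF2AK4 (0.302) and RPS6KB1 (0.376) were again last. RHEB went from the 58.1 to the 35.7 percentile and HBS1L from the 25.7 to the 15.1 percentile.

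**Figure D5:**
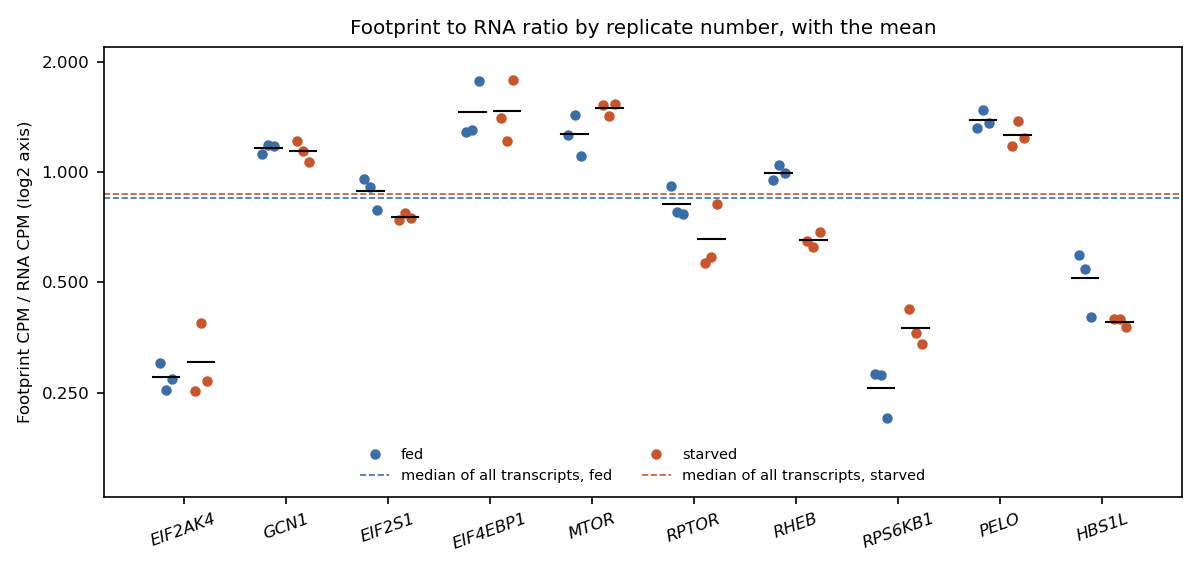
Footprint CPM over RNA CPM (library totals, log2 axis) of each member, with libraries divided by like replicate number, which the labels do not tie to a shared culture; points are replicate numbers, short lines means (n = 3) and dashed lines the medians of all transcripts with at least 10 counts in every library. EIF2AK4 and RPS6KB1 lie far below the medians, and the RHEB points of starved cells lie below all RHEB points of fed cells.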

How the data were processed

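The values are raw counts for each Ensembl transcript, deposited as 1 table per assay. Per the labels' protocols, TruSeq was used for RNA libraries and RiboCop to deplete ribosomal RNA. The tools named, per the submitters' processing notes, are STAR, cutadapt, DESeq2 and UMI-tools, and the build is GRCh38.p13. Which tool counted, over which stretch, and how shared reads were treated is not given in the sources used here.

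All transcripts were fitted with edgeR 4.0.16 in R 4.3.3 (glmQLFit, glmQLFTest, two-sided) after filterByExpr and TMM scaling. RNA and footprints had a fit each, with a treatment term alone. Efficiency had 1 model over 12 libraries, with factors computed within each assay on the 11027 transcripts kept in both. This model gave each transcript 1 dispersion for both assays. The common biological coefficient of variation was 5.75% in the RNA fit and 13.7% in the footprint fit. Efficiency standard errors may therefore understate footprint spread. That of EIF2AK4 was 0.174, below 0.180 for its footprints alone. Standard errors come from the F statistic. Alternatives used DESeq2 1.42.0, limma 3.58.1 (voom), other scalings and filters, a replicate block and each library left out; the fits were tested on simulated data. Chi-square per degree of freedom between replicates was 2.07 to 7.73 where a pair had 20 or more counts, so no library was a copy of another.

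Members, gene lists and tests were chosen with earlier results of these data known, and all 10 members are named. Since 0 of 19849 identifiers matched the gene tables, the further pathway lists, the cell type markers and the transcripts most like a member were not used here. No protein sequences are used here. Start windows were matched by symbol to RefSeq for 9 of 10 members.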

Additional observations from a re-analysis of the deposited data

Results flagged for a closer look

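The same contrast of starved over fed differed between the 2 assays for RHEB and for HBS1L, by the interaction of assay and treatment. The change in RHEB footprints was lower than that in its RNA by 0.69 on the log2 scale, a difference of −0.69 (SE 0.14, edgeR adjusted p = 0.00134), with both changes called and opposite in sign. For HBS1L the interaction was −0.48 (SE 0.16, edgeR adjusted p = 0.0337), with neither change called alone in the reported fits. Some alternatives called 1 of the separate HBS1L changes.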

How the results depend on the processing

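The counts of calls over all transcripts stayed within 1.5 times the reported ones in all settings run. Members called for efficiency, 2 as reported, numbered 4 without a filter on low counts and 1 with the replicate block. Without 1 library they ranged from 1 to 3 for efficiency, from 2 to 4 for footprints (reported 4) and from 5 to 7 for RNA (reported 6). The sign turned for members near 0, none of them called: MTOR footprints were 0.045 with library totals, 0.11 with the abundance trend removed, 0.045 with at least 10 counts per library and 0.0011 with limma-voom, and PELO footprints were −0.0017 with DESeq2 size factors, −0.040 without a filter and −0.0014 with the Wald test of DESeq2. In efficiency, EIF4EBP1 was 0.027 with library totals and 0.11 with the abundance trend removed, GCN1 0.14 with the trend removed and EIF2AK4 −0.057 without a filter. Leaving out 1 library gave −0.097 to 0.063 for MTOR, −0.062 to 0.071 for PELO and −0.059 to 0.20 for RPS6KB1 footprints, and −0.18 to 0.19 for EIF2AK4 and −0.18 to 0.082 for EIF4EBP1 efficiency. The cause was not tested.

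Same-numbered fed and starved libraries deviated together with correlations of −0.0044, 0.027 and 0.11 in RNA and −0.19, −0.0058 and −0.0099 in footprints, so the numbers were not taken to pair them. With the replicate block the adjusted p was 0.0620 for EIF2AK4 footprints, 0.0556 for HBS1L efficiency and 0.0354 for HBS1L RNA in edgeR, and no other call on a member changed. The footprint to RNA ratios moved by more than 1 SD in 6 of 20 cases with TMM scaling. The confidence intervals given are not limits of detection, since they are not adjusted for the number of transcripts tested. That of RPTOR efficiency excluded 0 (−0.75 to −0.08) without a call. Changes within the intervals could have been missed with 3 libraries per group.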
